A study of Oryza sativa Japonica Group with 3 samples.

Results

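Enzymes that turn stored oil and amino acids into sugar were followed in rice seeds of the japonica landrace Jiucaiqing through 6 loci, taken as a fixed list out of the 55986 loci measured. The list holds isocitrate lyase (LOC_Os07g34520), malate synthase (LOC_Os04g40990), a pair of PEP carboxykinases (LOC_Os03g15050 and LOC_Os10g13700) and a pair of pyruvate orthophosphate dikinases (LOC_Os03g31750 and LOC_Os05g33570). The rule names enzymes and uses no measured value, but the list was drawn up with earlier results of these data known. Whole seeds were sampled dry (0 h), imbibed (24 h) and germinated (48 h), with imbibition in distilled water at 30 °C and 1 RNA-seq library a stage, each combining 3 biological replicates. All stages share the landrace, and the labels name no genetic change and no added agent. Because the replicates were pooled before sequencing, no spread between seeds was measured and no test could be run, so each difference here is one between single libraries.

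Levels are given in FPKM, fragment counts scaled by transcript length and library size, with the isoforms of a locus added up. The libraries are called dry, imbibed and germinated below. The first step compares imbibed with dry, the second step germinated with imbibed, and the whole course germinated with dry. Shares, medians and counts given for all kept loci are over the 20915 loci that reached 1 FPKM in any library, and all 6 enzyme loci are among them. The files pair no locus ID with a name. The enzyme names are those under which the loci were listed, and the chromosome is the one written in each ID. A RefSeq gene table of assembly ASM3414082v1 lists genes with the synonyms ICL on chromosome 7, PPDK2 on chromosome 3 and PPDKB on chromosome 5, but it pairs none of the 6 IDs with a gene. The seed label could not be checked against marker genes for the same reason, and no source used here states the genome build of the files.

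The glyoxylate cycle runs in glyoxysomes, the peroxisomes of oil-storing seed tissue. It builds malate and succinate from acetyl-CoA released by fatty acid beta-oxidation, bypassing the steps of the citric acid cycle that lose carbon as CO2. Isocitrate lyase splits isocitrate into glyoxylate and succinate, and malate synthase joins glyoxylate with acetyl-CoA to give malate. PEP carboxykinase then turns oxaloacetate into phosphoenolpyruvate (PEP), the entry to gluconeogenesis, and pyruvate orthophosphate dikinase makes PEP from pyruvate in a reversible reaction. In cereal grains the oil lies mainly in the embryo and aleurone, while the starchy endosperm holds most of the starch. In whole-seed RNA, a smaller share of cells of one type and less RNA per cell cannot be told apart.

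Both glyoxylate cycle enzymes were above 50 FPKM in every library, isocitrate lyase 2.07-fold higher in the germinated than in the dry seed and malate synthase close to level. Within each of the other pairs, one locus was at least 2-fold higher in the imbibed than in the dry seed, and the other was at least 2-fold lower there and higher again after germination. The 6 loci added up to 253 FPKM dry, 383 FPKM imbibed and 379 FPKM germinated. As a share of each library's summed FPKM, that was 0.0287%, 0.0659% and 0.0708%. The summed FPKM of all loci was 881252, 580571 and 535327 in this order, and a single locus, LOC_Os09g00999, held 5.65%, 10.7% and 20.4% of it. Values per library and values as a share of the library can therefore differ in direction, and both are given where they do.

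**Figure D1:**
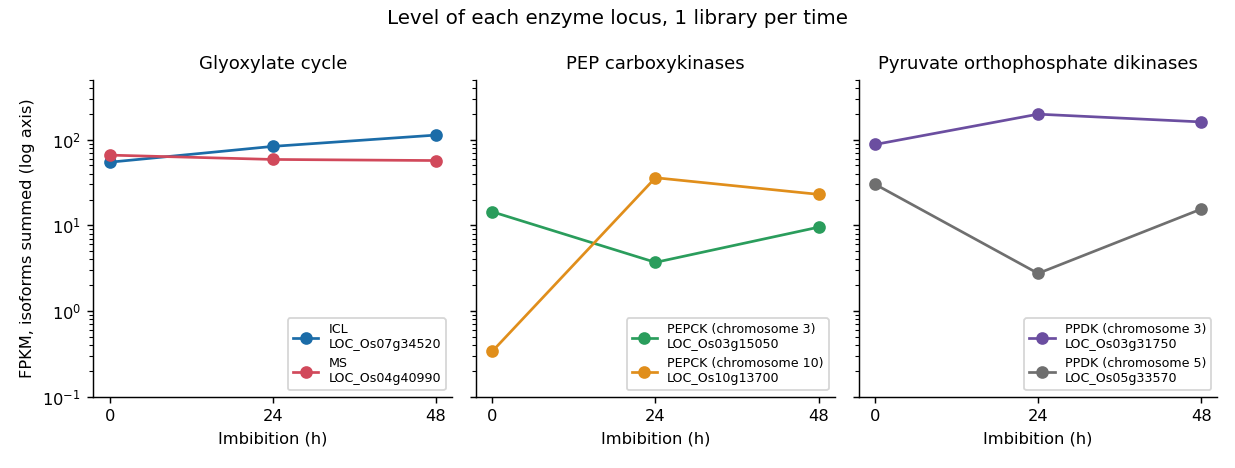
FPKM of the 6 enzyme loci (log axis) against hours of imbibition, with 1 point per library and no error bars because each time is 1 pooled library. Isocitrate lyase is at 54.6, 83.4 and 113 FPKM and malate synthase between 57.1 and 66.0 FPKM, while LOC_Os03g15050 and LOC_Os05g33570 have their lowest point at 24 h.

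Isocitrate lyase, the committed enzyme of the glyoxylate cycle, had 54.6 FPKM dry, 83.4 FPKM imbibed and 113 FPKM germinated. As deposited, it was the only one of the 6 loci whose FPKM was higher in each later library; as a share of the library, malate synthase was too. Its rank among all loci went from 1684 dry to 874 imbibed and 510 germinated. A locus was called higher or lower where log2(FPKM + 1) differed by at least 2-fold. On that scale isocitrate lyase differed by 0.60 over the first step, 0.43 over the second and 1.04 over the whole course, so that only the last of these passed the rule, and by a small margin. With a pseudocount of 5 FPKM that last difference was 0.99, and for the most abundant isoform alone 0.70, both under 2-fold. With each library rescaled to the same sum, the difference of the first step was 1.19 and passed.

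Malate synthase, which acts next in the cycle, was close to level. It had 66.0 FPKM dry, 58.7 FPKM imbibed and 57.1 FPKM germinated, so that the highest library was 1.16-fold above the lowest. Its log2 differences were -0.17 and -0.04 over the first and second steps and -0.21 over the whole course. As a share of the library, malate synthase went the other way, with 0.00749%, 0.0101% and 0.0107% of the summed FPKM, and its log2 difference over the whole course was 0.50 with equal sums. It was 1 of 6 loci past 2-fold in no comparison, a profile held by 41.8% of the 20915 kept loci.

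In summed FPKM, the order of the 2 glyoxylate cycle enzymes thus differed between the dry seed and the later libraries. Malate synthase was 1.21 times isocitrate lyase in the dry seed, whereas isocitrate lyase was 1.42 times malate synthase when imbibed and 1.98 times when germinated. This ratio within a library does not depend on how libraries are scaled. Their sum was 121, 142 and 170 FPKM. The dry-seed order rests on 1 library and on the summing of isoforms. By main isoform in the dry seed, isocitrate lyase was the higher one there too, with 52.1 FPKM against 39.2 FPKM for malate synthase.

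The PEP carboxykinases, which draw carbon from oxaloacetate towards sugar, held the locus with the widest range over time. LOC_Os10g13700 had 0.34 FPKM dry, 36.0 FPKM imbibed and 23.0 FPKM germinated. It was thus under 1 FPKM in the dry seed, where it ranked 20589 among all loci, and ranked 2233 imbibed and 2865 germinated. The log2 difference was 4.79 over the first step, larger than that of 99.6% of the kept loci, and 4.16 over the whole course. Over the second step it differed by -0.62, which is under 2-fold. The ratio of imbibed to dry FPKM was 106, but the counting error of the dry-seed value is unknown, since no read totals come with the files.

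LOC_Os03g15050, the other PEP carboxykinase, had the opposite profile over the first step. It had 14.4 FPKM dry, 3.70 FPKM imbibed and 9.52 FPKM germinated. Its log2 difference was -1.71 for the first step and 1.16 for the second, so that it passed 2-fold downwards and then upwards. Over the whole course it differed by -0.55, under 2-fold, and by 0.11 when libraries were given the same sum. The rise after 24 h was 0.74 with a pseudocount of 5 FPKM and 0.76 for the most abundant isoform, both under 2-fold.

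The PEP carboxykinase pool was therefore made up of different loci at different stages. LOC_Os03g15050 held 97.7% of the pair's FPKM dry, 9.33% imbibed and 29.3% germinated. LOC_Os10g13700 held 2.31%, 90.7% and 70.7%. By most abundant isoform alone, the germinated share of LOC_Os03g15050 was 20.1%. The pair together had 14.7 FPKM dry, 39.7 FPKM imbibed and 32.5 FPKM germinated, with log2 differences of 1.37 over the first step and 1.09 over the whole course. How reads matching both loci were divided between them bears less on the sum than on either locus.

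Of the pyruvate orthophosphate dikinases, the same locus was the main one in every library. LOC_Os03g31750 was the most abundant of the 6 loci in every library, with 87.8 FPKM dry, 198 FPKM imbibed and 161 FPKM germinated. Among all loci it ranked 1123, 327 and 353. Its log2 difference was 1.17 over the first step, which passed 2-fold, then -0.30 over the second and 0.87 over the whole course. For the most abundant isoform alone the first of these was 0.96, under 2-fold, and with equal sums the last was 1.58, past it.

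LOC_Os05g33570, the second dikinase, had 30.2 FPKM dry, 2.75 FPKM imbibed and 15.5 FPKM germinated. The dry seed was 10.97 times the imbibed seed, and the germinated seed was 5.63 times it. On the log2 scale the steps were -3.06 and 2.14, and 1.72% of the kept loci had a lower value for the first step. Over the whole course the difference was -0.92, just under 2-fold. It was 0.0012 when libraries were scaled to the same sum without LOC_Os09g00999, so the germinated seed was not lower than the dry seed under that scaling.

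Of the pair's FPKM, LOC_Os05g33570 held 25.6% dry, 1.37% imbibed and 8.77% germinated, and LOC_Os03g31750 the rest. By most abundant isoform alone, the germinated share of LOC_Os03g31750 was 85.4%, against 91.2% with isoforms added up. The sum of the pair was 118, 201 and 176 FPKM, with a log2 difference of 0.76 over the first step and 0.58 over the whole course, both under 2-fold. In both pairs the locus that was called lower at 24 h was the one called higher from 24 h to 48 h. Both calls use the same 24 h value, so they are not separate observations.

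Counted over the first step, 2 of the 6 loci were at least 2-fold higher (LOC_Os10g13700 and LOC_Os03g31750), where 17.7% of all kept loci were. Another 2 of 6 were at least 2-fold lower (LOC_Os03g15050 and LOC_Os05g33570), against 15.4% of all kept loci. With equal sums 3 of the 6 were higher and 2 lower, against 28.1% and 8.06% of all loci kept under that scaling. The median log2 difference of the 6 loci was 0.22, and that of all kept loci 0.06.

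Over the second step, 2 of 6 were higher, the same 2 loci that had been lower over the first step, beside 13.8% of all kept loci. None of the 6 was lower, beside 10.9%. The median log2 difference was 0.20 for the 6 loci and 0.02 for all kept loci. Over the whole course, 2 of 6 were higher (isocitrate lyase and LOC_Os10g13700), a share near the 27.5% of all kept loci, and none was lower, beside 20.4%. With equal sums 3 of 6 were higher and none lower, beside 41.2% and 11.7%. The medians as deposited were 0.33 for the 6 and 0.18 for all kept loci. These 3 comparisons share libraries and are not independent of each other.

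A dip at 24 h was uncommon among all kept loci. LOC_Os03g15050 and LOC_Os05g33570 were at least 2-fold lower at 24 h than in both other libraries, which made 2 of the 6 loci. Among the 20915 kept loci, 260, or 1.24%, had that profile. The profile was singled out after the values were seen, and it rests on the single 24 h library. For LOC_Os03g15050 the rise was under 2-fold with a pseudocount of 5 FPKM (0.74) and for the most abundant isoform (0.76). The kept loci had a median of 4.09 FPKM in the dry seed, and low loci reach 2-fold less easily on log2(FPKM + 1).

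**Figure D2:**
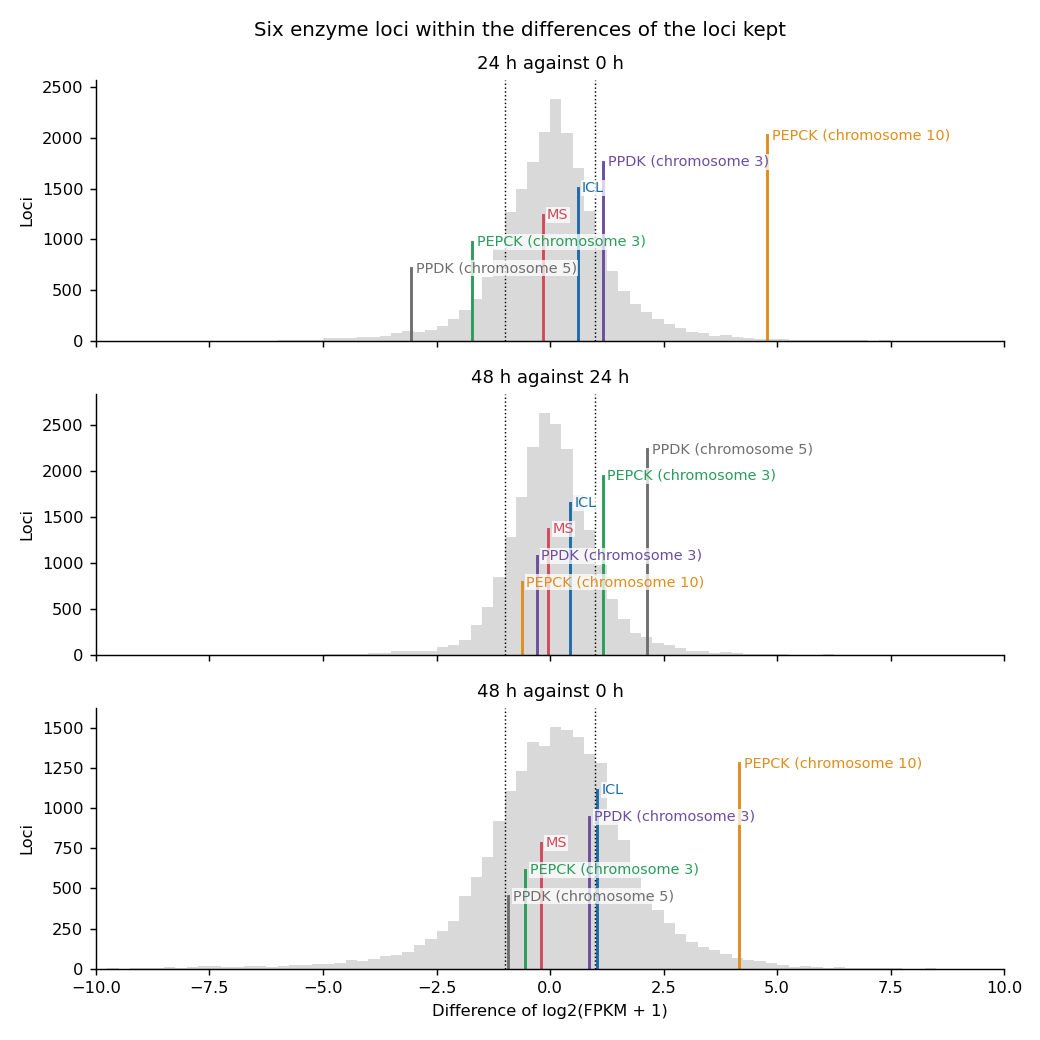
Number of loci (grey bars, the 20915 kept loci in each panel) by difference of log2(FPKM + 1) between 2 libraries, with the 6 enzyme loci as coloured lines whose height has no meaning and the 2-fold rule dotted. LOC_Os10g13700 stands at 4.79 and LOC_Os05g33570 at -3.06 over the first step, and malate synthase stays near 0 in all 3 comparisons.

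Ordered by level, the dry seed had LOC_Os03g31750 first, then malate synthase, isocitrate lyase, LOC_Os05g33570, LOC_Os03g15050 and LOC_Os10g13700. At 24 h the order was LOC_Os03g31750, isocitrate lyase, malate synthase, LOC_Os10g13700, LOC_Os03g15050 and LOC_Os05g33570. The order at 48 h differed from that at 24 h only in its last 2 places, which were exchanged. The highest of the 6 was 258 times the lowest in the dry seed, 72.1 times at 24 h and 16.9 times at 48 h. With no spread measured, it cannot be said which neighbours in these orders differ beyond it. The closest neighbours in any library were malate synthase and isocitrate lyase in the dry seed, 1.21-fold apart.

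The files list 14 isoforms for the 6 loci. Malate synthase was close to level while its main isoform was a different one at 24 h. LOC_Os04g40990.1 had 39.2 FPKM dry, 11.2 FPKM imbibed and 31.6 FPKM germinated, or 59.4%, 19.1% and 55.4% of the locus. LOC_Os04g40990.2 was at 26.8, 47.5 and 25.4 FPKM, or 40.6%, 80.9% and 44.6%. A main isoform that differed at 24 h and was the same at 0 h and 48 h was found in 48 of the 1622 loci that have 2 or more isoforms and reach 10 FPKM in every library, or 2.96%. Isocitrate lyase, malate synthase and LOC_Os03g31750 are the 3 enzyme loci among these 1622. This isoform profile was picked out after the values of malate synthase were seen. Which isoform is the main one can also rest on an estimated division of reads.

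In isocitrate lyase, LOC_Os07g34520.2 was the main isoform throughout, with 52.1 FPKM dry, 68.9 FPKM imbibed and 85.6 FPKM germinated. LOC_Os07g34520.1 was listed at 0 in the dry seed and had 11.9 FPKM imbibed and 25.6 FPKM germinated, or 14.2% and 22.6% of the locus. Of the 58.5 FPKM by which the locus was higher at 48 h than at 0 h, the isoform listed at 0 in the dry seed accounted for 25.6 FPKM. A listed 0 can be a failed estimate.

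The more abundant dikinase, LOC_Os03g31750, changed its makeup as well. LOC_Os03g31750.1 had 0.03 FPKM dry, 44.0 FPKM imbibed and 70.7 FPKM germinated, or 0.034%, 22.2% and 43.9% of the locus. LOC_Os03g31750.2 was at 77.4, 151 and 90.3 FPKM and stayed the main isoform. LOC_Os03g31750.3 was at 10.4, 2.98 and 0 FPKM. Between 24 h and 48 h the locus was thus lower in its second isoform and higher in its first. An isoform that gained 20 points or more of its locus between 0 h and 48 h was found in 26.9% of the 1622 loci. Of the 3 enzyme loci among them, 2 had such a gain, LOC_Os03g31750 with 43.9 points and isocitrate lyase with 22.6. The share is per locus, so it does not tell how often 2 of 3 loci would have it.

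In LOC_Os03g15050, the PEP carboxykinase that dipped, LOC_Os03g15050.4 was the main isoform, at 12.7, 3 and 5.79 FPKM. LOC_Os03g15050.2 was at 0.23 FPKM, listed at 0, and at 2.36 FPKM, so that it held 24.8% of the locus at 48 h against 1.6% in the dry seed. LOC_Os10g13700 is listed with a single isoform, so its profile involves no division of reads among listed isoforms. LOC_Os05g33570 had all its FPKM in its second isoform, with the first listed at 0 in every library. Such a 0 can itself be the outcome of an estimated division of reads.

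**Figure D3:**
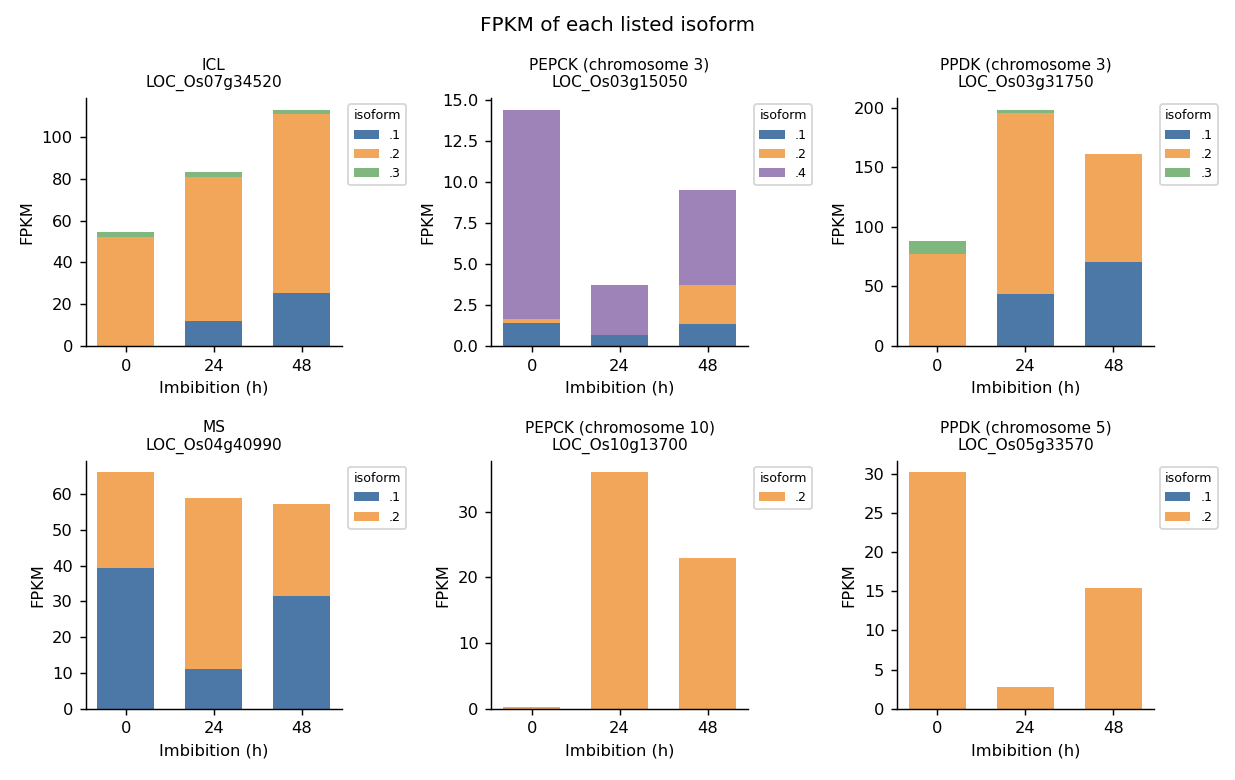
FPKM of each listed isoform (stacked, linear axes with a scale for each locus) at 0, 24 and 48 h. Malate synthase has nearly equal bars with a different makeup at 24 h, where its second isoform holds 80.9%, and the first isoform of LOC_Os03g31750 goes from 0.03 to 70.7 FPKM.

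Scaling decided the direction of some differences over the whole course and not of others. The median log2 difference of all kept loci over the whole course was 0.18 as deposited and 0.75 with equal sums, so values are read against that median. Isocitrate lyase lay 0.86 above the median as deposited and 1.00 above it with equal sums. LOC_Os10g13700 lay 3.99 and 3.78 above it, and LOC_Os03g31750 0.69 and 0.83 above it. LOC_Os05g33570 lay below it by the values -1.10 and -0.98, LOC_Os03g15050 by -0.72 and -0.64, and malate synthase by -0.38 and -0.25. Each of the 6 loci kept its side of the median under both. Rescaling multiplies all loci of a library by the same factor, so it moves a locus and the median in the same direction. The amounts differ somewhat, since 1 FPKM is added to each value. That each locus kept its side was therefore largely fixed in advance and is no check of the differences. Over the first step malate synthase did change side, from -0.23 as deposited to 0.019 with equal sums without LOC_Os09g00999.

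**Figure D4:**
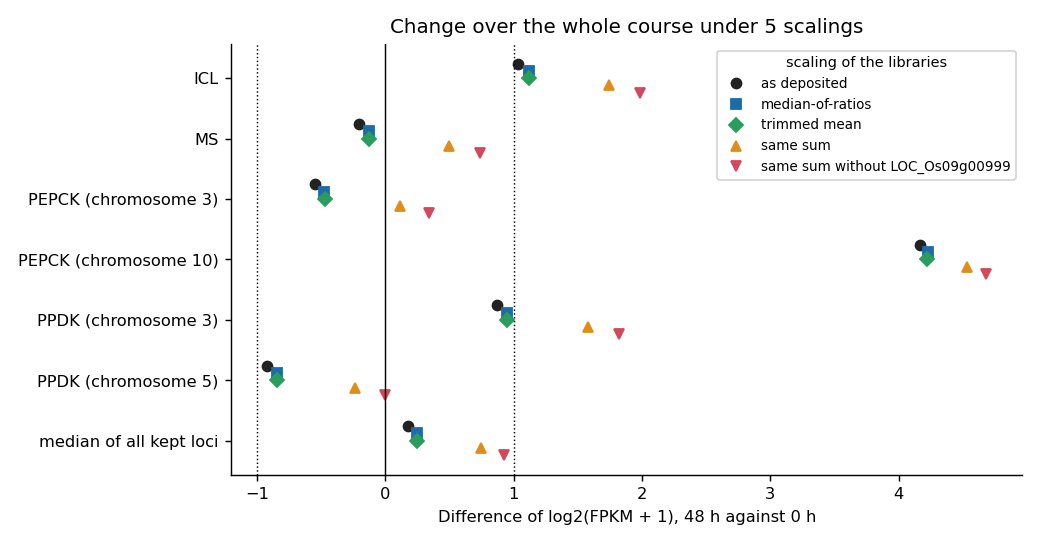
Difference of log2(FPKM + 1) between 48 h and 0 h for each enzyme locus and for the median of all kept loci, under 5 scalings of the libraries (symbols), with the 2-fold rule dotted. Scaling to the same sum moves every point to the right, and the median goes from 0.18 to 0.75.

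Loci with nearly the same profile as an enzyme locus were looked for among all other kept loci, by the Euclidean distance of log2(FPKM + 1) over the 3 libraries. The nearest to isocitrate lyase was LOC_Os11g06890, at 50.1, 82.5 and 112 FPKM, with a distance of 0.12. The nearest to LOC_Os03g31750 was LOC_Os07g38130, at 82.5, 209 and 152 FPKM, with a distance of 0.14. Malate synthase was most like LOC_Os05g43360, at 73.2, 60.4 and 56.8 FPKM (distance 0.15), and LOC_Os03g15050 most like LOC_Os09g19952, at 13.4, 3.69 and 8.47 FPKM (distance 0.18). The files do not name these loci. With only 3 libraries a close profile is common for some loci. Within a distance of 0.5 there were 49 loci for malate synthase, 18 for isocitrate lyase, 7 for LOC_Os10g13700 and 6 for LOC_Os05g33570. These last 2 had the fewest loci of like profile among the 6.

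Position did not group the enzyme loci. They lie on chromosomes 3, 4, 5, 7 and 10, and only the IDs on chromosome 3 share one. Of the 5 listed loci on either side of each enzyme locus, 60 in all, 31 reached 1 FPKM in a library. Of these 31, 8 were at least 2-fold higher and 4 lower over the first step, beside 17.7% and 15.4% of all kept loci. The neighbours of LOC_Os05g33570 and LOC_Os03g15050 included none with the dip at 24 h, and 1 neighbour of isocitrate lyase had it. Of all kept loci, 1.24% had it. LOC_Os10g13700 had 1 neighbour at 1 FPKM or more, and that one was not past 2-fold in any comparison.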

How the data were processed

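Poly(A)-enriched RNA of whole seeds was sequenced per the labels' protocols, with 3 biological replicates pooled into each library per the series design text. The authors deposited FPKM values per isoform, to 2 decimals, from isoform-level result files per the file headers. The submitters' processing notes name RSEM 1.1.11, edgeR 2.3.52 and FastQC, with no role stated. No source used here states the aligner, build or annotation release. Where RSEM made the values, reads that match several loci or isoforms were divided by estimated probability, so values of similar loci and of single isoforms are less certain.

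Isoform values deposited as FPKM were added up by locus ID. Loci that reached 1 FPKM in any library were kept. Differences were taken on log2(FPKM + 1), which understates changes of low loci, and were called at 2-fold, with no test because each stage is 1 library. The call was run on simulated data with small noise, with planted changes all larger than 2-fold and in loci of higher level. That run does not bear on calls near 2-fold, on low values or on the unmeasured spread between seeds. The files give no read totals. The relative worth of 1 read was estimated from the commonest ratio between low isoform values (0.5 to 2 FPKM, log2 tolerance 0.015). It came to 1.09 for imbibed and 1.06 for germinated over dry seed, an estimate that favours ratios near 1. The estimate assumes that this ratio comes from equal read counts, which could not be checked.

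The 6 loci, the rule for printed loci (all 6, and the nearest locus in profile, for at most 2 higher and 2 lower at 48 h than at 0 h) and the alternatives were chosen with earlier results of these data known. Isoform profiles and the dip were described after the values were seen. A list of other enzymes of the pathway was planned by wording, but the RefSeq table of 39387 genes has no description column and pairs 1 of the locus IDs in the files, none of the 6, so that list is not used here. No sequence is printed, since none came with the files used here. Python 3.11.15, numpy 2.4.6, pandas 2.3.3 and matplotlib 3.10.9 were used.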

Additional observations from a re-analysis of the deposited data

How the results depend on the processing

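No paired analysis was possible because a stage is represented by 1 pooled library, and no replicate could be left out. Of 60 alternative counts of enzyme loci higher or lower, 50 stayed within 1.5 times the value reported. These include the counts with no FPKM filter and with a filter of 5 FPKM. Every enzyme locus passed 5 FPKM in some library, so those counts could not change. The 50 therefore overstates how far the counts were checked. With a 4-fold rule, 1 locus was higher and 1 lower over the first step (24 h against 0 h), 1 was higher over the second step (48 h against 24 h) and 1 over the whole course. A pseudocount of 5 FPKM gave 1 higher locus in each of the last 2 comparisons. The most abundant isoform of each locus gave 1 higher locus in every comparison and 1 lower over the whole course, LOC_Os03g15050 with a log2 difference of -1.02.

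Of 144 alternative log2 differences of single loci, 118 kept direction and side of the fold rule of their setting. Of the others, 9 fell under that rule, 5 passed it and 12 changed sign. The rule was 2-fold except in the 4-fold setting, which repeats the main differences. The most abundant isoform also repeats them for LOC_Os10g13700 and LOC_Os05g33570, whose FPKM lies in 1 listed isoform. In these cases the direction could not change, so the 118 overstates how far the differences were checked. The 9 include differences from the 4-fold setting that were still past 2-fold. Those were -1.71 and 1.16 for LOC_Os03g15050 over the first and second steps and 1.17 for LOC_Os03g31750 over the first. Isocitrate lyase, with 1.04 over the whole course, was another. The sign changes concerned differences under 2-fold. For malate synthase, LOC_Os04g40990, equal sums gave 0.43 over the first step, 0.074 over the second and 0.50 over the whole course. Equal sums without LOC_Os09g00999 gave 0.50, 0.24 and 0.74. Over the second step, median-of-ratios factors gave 0.051 and the trimmed mean gave 0.051. The most abundant isoform gave 0.80 over the first step. Over the whole course, LOC_Os03g15050 was at 0.11 and 0.34 under the 2 equal-sum scalings, and LOC_Os05g33570 at 0.0012 under the second. Of the 6 nearest loci in profile, 5 were the same at either other pseudocount and 6 with equal sums. The counting error of low values such as 0.34 FPKM cannot be given without read totals.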
